A study of Mus musculus with 6 samples.

Results

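The naive and quiescence transcription factors are a set of 10 genes, Tcf7, Lef1, Klf2, Klf3, Foxo1, Foxo3, Foxp1, Bach2, Satb1 and Id3, defined by a list of names. By the array annotation, 9 of the 10 genes had at least 1 probe set carrying their symbol alone, and Tcf7 was not analysed here. Foxo1 had 2 such probe sets and each of the other genes had 1, so 10 probe sets of the 41345 on the array belong to the set. Expression was tested in 22180 genes, each represented by the brightest of its single-symbol probe sets.

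Expression was measured on 6 arrays (Affymetrix Mouse Gene 2.0 ST), each from CD4+ T cells purified from the spleens of female wild-type C57BL/6 mice about 8 weeks old. All cells were first stimulated for 24 h with antibodies to CD3 and CD28 at 10 µg/mL each, which mimic antigen recognition and costimulation. The cells of 3 arrays then received 100 µM icilin, a synthetic cooling compound known as an agonist of the cation channels TRPM8 and TRPA1, for 24 h, and the cells of the other 3 received the DMSO solvent for the same time. Per the series design text both groups came from the same 3 mice. The groups used here cover 1 dose and 1 time and were all stimulated, so unstimulated cells, in which these factors are best known, were not among them. Because each array is a bulk sample, fewer cells of a type and less RNA per cell cannot be told apart. The values are log2 expression values made with the RMA method, which aligns the distributions of the arrays and compresses the differences of dim genes, and 1 unit is a doubling.

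The genes of the set encode transcription factors that hold T cells in the naive, resting state. TCF-1, the product of Tcf7, and LEF1 are related proteins that keep the T cell programme accessible, KLF2 drives the receptors for lymph node homing and exit, and FOXO1 and FOXO3 switch on survival and cell cycle arrest genes until signalling through PI3K and AKT sends them out of the nucleus. FOXP1, BACH2 and SATB1 restrain effector genes or organise chromatin, and ID3 blocks the DNA binding of E proteins. Several of these genes are known to fall in expression after T cell stimulation.

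Icilin was accompanied by small differences in these genes. Foxo3 was the 1 member of the 9 that passed an adjusted p of 0.1 (limma, Benjamini-Hochberg over all 22180 genes), and it fell by 0.31 on the log2 scale. Over all genes 5.28% passed, 3.00% lower and 2.27% higher. None of the 9 was called at the study's limits, an adjusted p under 0.1 together with a change of at least 1.5-fold, which 1.40% of all genes met. At an unadjusted limma p under 0.05 the set held 3 lower genes, Foxo3, Foxo1 and Klf3, and 0 higher ones. Of all 22180 genes 17.1% passed that limit in either direction, 1785 lower and 2017 higher. SAM, the test named by the study, called 0 members and 3.90% of all genes. The differences of the 9 genes ran from -0.31 to 0.18, with a median of -0.07 against 0.01 over all genes, and 6 of the 9 lay below 0 (47.0% of all genes). The 95% interval of the difference lay inside 1.5-fold in either direction, 0.58 on the log2 scale, for all 9 genes, as it did for 89.2% of all genes. All 9 were brighter than the median gene of the array.

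**Figure D1:**
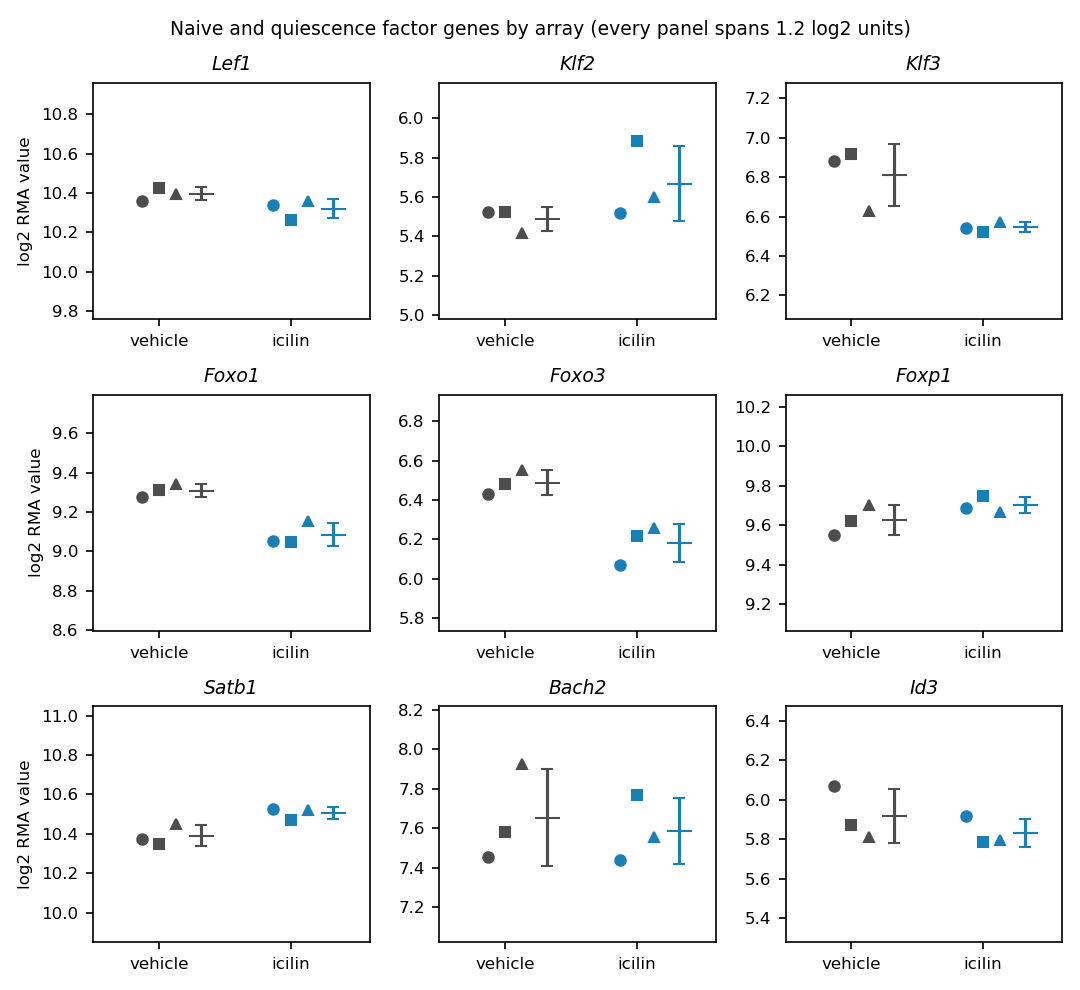
Log2 RMA value (vertical axis) of the 9 member genes on each array, vehicle in grey and icilin in blue; circles, squares and triangles are replicates 1, 2 and 3, and the bar beside them is the mean with the SD of 3 arrays. The icilin arrays of Foxo3 (6.07 to 6.26) and Foxo1 (9.05 to 9.15) lie below their vehicle arrays, while those of Klf2, Foxp1, Bach2 and Id3 overlap with them.

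In 5 of the 9 genes the icilin and the vehicle arrays did not overlap, 4 with icilin lower (Lef1, Klf3, Foxo1 and Foxo3) and 1 with icilin higher (Satb1). Over all genes 24.1% showed such a separation, 10.5% with icilin lower and 13.6% with icilin higher. The members and all genes are not alike in brightness, since all 9 members were brighter than the median gene. The gap between the groups was 0.06 to 0.17 for Klf3, Foxo1 and Foxo3, but 0.019 for Satb1 and 0.0039 for Lef1. An exact permutation test of 3 against 3 arrays cannot give a two-sided p under 0.1 for a single gene, so the calls rest on limma, which pools the spread over genes.

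The promoters of 5 members are shown because the factors of this set are held to act on each other's genes, and because Foxo3, Foxo1 and Klf3 were the 3 members with the smallest p while Satb1 and Id3 carry a KLF motif. Each sequence is the 150 bases just before the RefSeq transcript start (build GRCm38.p6), written 5′ to 3′ on the strand of the gene, with motif matches in capitals. They lie at chr10:42276696-42276845 (Foxo3, minus strand), chr3:52268187-52268336 (Foxo1, plus strand), chr5:64803371-64803520 (Klf3, plus strand), chr17:51833291-51833440 (Satb1, minus strand, the first of 5 annotated starts) and chr4:136143672-136143821 (Id3, plus strand).
Foxo3: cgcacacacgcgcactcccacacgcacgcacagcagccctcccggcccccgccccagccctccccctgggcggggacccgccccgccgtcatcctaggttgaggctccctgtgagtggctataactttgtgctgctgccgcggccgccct
Foxo1: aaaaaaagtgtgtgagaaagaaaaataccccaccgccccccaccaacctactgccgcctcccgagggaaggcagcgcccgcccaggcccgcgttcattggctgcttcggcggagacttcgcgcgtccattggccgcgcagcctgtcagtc
Klf3: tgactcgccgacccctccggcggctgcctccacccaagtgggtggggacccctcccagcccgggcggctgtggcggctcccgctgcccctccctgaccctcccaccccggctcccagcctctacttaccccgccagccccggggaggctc
Satb1: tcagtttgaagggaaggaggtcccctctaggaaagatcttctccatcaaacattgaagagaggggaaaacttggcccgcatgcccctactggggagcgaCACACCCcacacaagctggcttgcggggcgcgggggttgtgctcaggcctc
Id3: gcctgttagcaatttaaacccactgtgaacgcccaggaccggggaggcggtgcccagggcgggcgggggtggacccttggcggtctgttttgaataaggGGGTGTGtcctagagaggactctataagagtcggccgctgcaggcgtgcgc
The share of G and C was 72.7% in Foxo3, 63.3% in Foxo1, 76.7% in Klf3, 58.7% in Satb1 and 62.7% in Id3. All 10 members had RefSeq windows of 300 bases, from 250 before to 50 after a start, 20 windows in all, and both strands were searched for 5 motifs. The KLF motif CACACCC was found in 3 of the 20 windows, in Satb1 and Id3 (both starting 51 bases before the start, on opposite strands) and Tcf7, and in 7.95% of 32851 windows of all genes. The FOXO motif GTAAACA was in 1 of the 20, a Tcf7 window (3.65% of all), and the TCF and LEF motif CTTTGAT in 0 of the 20 (3.73% of all). The E box CACGTG was in 1, a later start of Lef1 (7.15% of all), and the E box CAGCTG in 3, of Lef1, Satb1 and Tcf7 (16.3% of all). No 2 of these matches overlapped. None of the 5 motifs was in the windows of Foxo3, Foxo1 or Klf3, which says only that these letters are not there.

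Both FOXO genes of the set were lower on every icilin array than on any vehicle array. Foxo3, whose product induces cell death and cell cycle arrest genes when signalling is low, had log2 values of 6.43, 6.48 and 6.55 on the vehicle arrays and 6.07, 6.22 and 6.26 on the icilin arrays. The highest icilin array thus lay below the lowest vehicle array. The mean fell from 6.49 ± 0.06 (SD, n = 3) to 6.18 ± 0.10, a difference of -0.31 ± 0.08 (SE; 95% interval -0.49 to -0.13; limma adjusted p = 0.0963) or 0.809-fold. This p is near the limit and rank 1139 of all genes. The call ended when any 1 of the 6 arrays was left out: without icilin replicate 1, 2 or 3 the difference was -0.25, -0.32 and -0.34, and without vehicle replicate 1, 2 or 3 it was -0.33, -0.31 and -0.27 (adjusted p 0.142 to 0.235). Median-centred arrays also ended the call but kept the sign (-0.28, adjusted p = 0.119). The call ended too with the replicate number as a block (adjusted p = 0.153). The limma fit over every single-symbol probe set (adjusted p = 0.103) and SAM gave no call either. The block, that fit and SAM leave the difference unchanged and could not turn its sign.

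Foxo1, the main FOXO factor of naive T cells and a driver of homing and interleukin 7 receptor genes, had values of 9.27, 9.31 and 9.34 with vehicle and 9.05, 9.05 and 9.15 with icilin. These groups did not overlap, and the means were 9.31 ± 0.03 and 9.08 ± 0.06. The difference of -0.22 ± 0.06 (95% interval -0.38 to -0.07) had an adjusted p of 0.137 by limma and did not pass. The second, dimmer probe set of Foxo1 gave 6.09, 5.93 and 6.09 with vehicle and 6.15, 5.64 and 5.93 with icilin. There the groups overlapped, with a difference of -0.13 ± 0.13 (95% interval -0.44 to 0.18, adjusted p = 0.678 in the limma fit over every single-symbol probe set), and the mean of the 2 probe sets stood at -0.18. Of the other FOXO genes, Foxo4 had a difference of -0.19 ± 0.10 (adjusted p = 0.375) and Foxo6 one of -0.11 ± 0.07 (adjusted p = 0.504). All 4 measured FOXO genes were below 0, with a median of -0.21, while 1 of the 4, Foxo3, passed the test. Each of the 4 stayed below 0 with centred or quantile normalized arrays and without any 1 array. Runs that change only the test could not turn a sign.

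The 2 KLF genes of the set stood on opposite sides of 0. Klf3, a repressor of the Krüppel-like family, had values of 6.88, 6.92 and 6.63 with vehicle and 6.54, 6.52 and 6.57 with icilin. Vehicle replicate 3 was the array nearest to the icilin group, which was tight. The means were 6.81 ± 0.16 and 6.55 ± 0.03, and the difference of -0.26 ± 0.09 (95% interval -0.48 to -0.05) did not pass (limma adjusted p = 0.197). Without vehicle replicate 3 it was -0.35 and passed (adjusted p = 0.0854). Klf2, the activator of the egress receptor gene S1pr1, had 5.53, 5.52 and 5.42 with vehicle and 5.52, 5.89 and 5.60 with icilin. Icilin replicates 2 and 3 stood above every vehicle array, replicate 2 by the most, and icilin replicate 1 lay among the vehicle arrays. The difference of 0.18 ± 0.10 (95% interval -0.07 to 0.43) did not pass (adjusted p = 0.450), and without icilin replicate 2 it was 0.07. Of 15 other measured KLF genes, 1 fell and 14 did not pass, with a range of -0.36 to 0.18 and a median of -0.05. The 1 was Klf12 (-0.36 ± 0.07, adjusted p = 0.0424), dimmer than the median gene, and it no longer passed when icilin replicate 1, icilin replicate 3 or a single vehicle replicate was left out (-0.36 to -0.31, adjusted p 0.106 to 0.141) or with the replicate block (adjusted p = 0.137).

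Lef1 was among the brightest genes of the array and differed little. Its values were 10.36, 10.43 and 10.40 with vehicle and 10.34, 10.27 and 10.36 with icilin, so that the groups all but touched. The difference was -0.07 ± 0.06 (95% interval -0.22 to 0.07, or 0.857-fold to 1.05-fold; limma adjusted p = 0.613). Its paralog Tcf7l1, a repressor of Wnt target genes, fell from 4.73 ± 0.04 to 4.24 ± 0.04, a difference of -0.49 ± 0.06 (adjusted p = 0.00920) that is short of 1.5-fold. Tcf7l1 was dimmer than the median gene, at brightness percentile 48.7, and Tcf7l2, dimmer still, had a difference of 0.02 (adjusted p = 0.896).

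Satb1, a chromatin organiser, had 10.37, 10.35 and 10.45 with vehicle and 10.53, 10.47 and 10.52 with icilin. The icilin arrays were all higher, by a narrow gap. The means were 10.39 ± 0.05 and 10.51 ± 0.03, and the difference of 0.12 ± 0.06 (95% interval -0.03 to 0.26) did not pass (limma adjusted p = 0.418). Foxp1, which keeps T cells quiescent, had 9.55, 9.62 and 9.70 with vehicle and 9.69, 9.75 and 9.67 with icilin, groups that overlapped (0.08 ± 0.07, 95% interval -0.08 to 0.24, adjusted p = 0.634). Its paralogs did not pass either: Foxp3, the lineage factor of regulatory T cells, stood at 0.29 ± 0.08 (adjusted p = 0.126), Foxp2 at -0.20 (adjusted p = 0.576) and Foxp4 at 0.01 (adjusted p = 0.986), the last with a sign that turned under quantile normalization (-0.0063).

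Bach2, a repressor that competes with AP-1 factors at effector genes, was the most variable member. Its vehicle arrays had 7.45, 7.58 and 7.93 and its icilin arrays 7.44, 7.77 and 7.55, spread over the same range. The difference of -0.06 ± 0.14 (95% interval -0.40 to 0.27, limma adjusted p = 0.860) turned to 0.07 without vehicle replicate 3 and to 0.0086 without icilin replicate 1. Its paralog Bach1, a heme-regulated repressor, stood at 0.13 (adjusted p = 0.596). Id3 had 6.07, 5.87 and 5.81 with vehicle and 5.92, 5.79 and 5.80 with icilin, again with overlap. Its difference was -0.08 ± 0.09 (95% interval -0.29 to 0.12, adjusted p = 0.687). The other inhibitor genes of the family stood at -0.30 (Id1, adjusted p = 0.296), -0.18 (Id2, adjusted p = 0.211) and -0.0093 (Id4, adjusted p = 0.974), the last with a sign that turned when arrays were centred on their median (0.016).

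**Figure D2:**
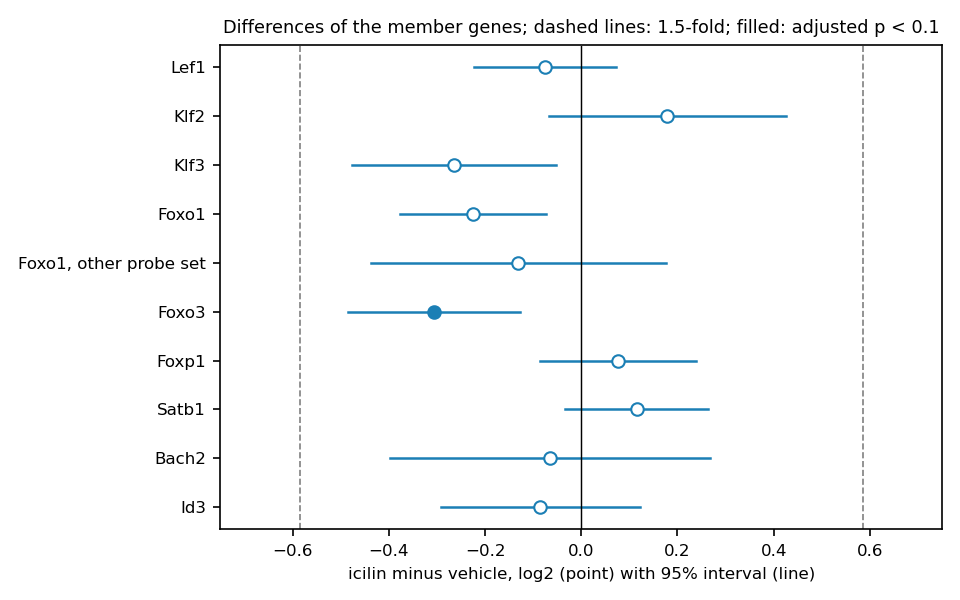
Difference between icilin and vehicle (horizontal axis, log2) of each member gene and of the second Foxo1 probe set, with its 95% interval; dashed lines mark 1.5-fold and a filled point an adjusted p under 0.1. The intervals of Foxo3, Foxo1 and Klf3 lie below 0, and every interval lies between the dashed lines.

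The 2 genes whose pattern over the 6 arrays was most like that of Foxo3, by the root mean square difference of log2 deviations among 11089 other genes brighter than the median, were Atxn7l1 (0.026) and Snrnp25 (0.030). The group difference is part of that likeness, so differences near that of Foxo3 follow from the choice. Atxn7l1 encodes a relative of a deubiquitinase module protein and had a difference of -0.32 (adjusted p = 0.115). Snrnp25, a gene for a minor spliceosome protein, fell by 0.30 on the log2 scale (adjusted p = 0.0773), a call that ended when any 1 array was left out (-0.35 to -0.25, adjusted p 0.111 to 0.204).

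Genes known as targets of KLF2 and FOXO1 included some that fell and some that rose. Of 19 measured genes of homing, survival and arrest, 4 fell and 2 rose at the adjusted p and 13 missed it, with a median of -0.0061. Of these, 3 lower and 1 higher genes also passed 1.5-fold. The insulin receptor substrate gene Irs2, which FOXO factors induce, had 6.65, 6.94 and 6.80 with vehicle and 5.46, 5.73 and 5.80 with icilin (-1.13 ± 0.12, limma adjusted p = 0.00410). Those arrays stood far apart. The atypical cyclin gene Ccng2, which is raised in resting cells, fell by 0.79 on the log2 scale (SE 0.07, adjusted p = 0.00286), and the inhibitory receptor gene Ctla4 by 0.69 (SE 0.06). The cell cycle inhibitor gene Cdkn1b fell by 0.41 (SE 0.07, adjusted p = 0.0237), short of 1.5-fold, and its adjusted p with the replicate number as a block was 0.110. In the other direction, the interleukin 7 receptor gene Il7r had 8.58, 8.49 and 8.39 with vehicle and 9.20, 9.21 and 9.22 with icilin (0.72 ± 0.07, adjusted p = 0.00343). The other gene that rose, named after its value was seen, was the cell death gene Bcl2l11 (0.32 ± 0.06, adjusted p = 0.0513), whose call ended without any 1 array (0.29 to 0.34, adjusted p 0.104 to 0.169), with the replicate block (adjusted p = 0.147) and by SAM. The migration genes of the list, also named after their values were seen, did not pass: S1pr1 stood at -0.20 ± 0.11 (adjusted p = 0.422), S1pr4 at -0.27 ± 0.07 (adjusted p = 0.122) and the lymph node homing receptor gene Ccr7 at -0.14 ± 0.08 (adjusted p = 0.447).

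Regulators upstream of the FOXO factors mostly did not pass. Of 17 measured genes of PI3K, AKT and mTOR signalling 1 fell, the lipid kinase subunit gene Pik3cg, from 8.31 ± 0.09 to 7.67 ± 0.10 (-0.63 ± 0.08, limma adjusted p = 0.00983), while the other 16 missed the threshold (median -0.0063). Of 22 quiescence restraint genes 1 fell, the inhibitory receptor gene Vsir (-0.30 ± 0.07, adjusted p = 0.0963), and 21 did not pass, with a median of -0.0096. The call of Vsir ended without any 1 of the icilin replicates or without vehicle replicate 2 or 3 (-0.32 to -0.26, adjusted p 0.192 to 0.248), with the replicate block (adjusted p = 0.214), with centred arrays (-0.27) and by SAM.

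Partners of the TCF and LEF factors gave a similar count. Of 18 measured genes of this list and the Wnt pathway 1 fell, the Wnt receptor gene Fzd7, which had 6.19, 6.13 and 6.24 with vehicle and 5.26, 5.15 and 5.34 with icilin. Its difference was -0.93 ± 0.08 (limma adjusted p = 0.00177), past 1.5-fold, and 17 genes did not pass (list median -0.02). Among these 17, and named after their values were seen, the corepressor gene Tle4 stood at 0.28 ± 0.09 (adjusted p = 0.200) and Sox4 at 0.31 ± 0.095 (adjusted p = 0.155). Of the 3 E protein genes, whose products ID3 binds, Tcf4 fell by 0.39 on the log2 scale (SE 0.09, adjusted p = 0.0771) and 2 did not pass. The call of Tcf4 ended without any 1 of the icilin replicates or without vehicle replicate 2 or 3 (-0.42 to -0.31, adjusted p 0.144 to 0.214) and with the replicate block (adjusted p = 0.111).

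Factors of effector and general T cell identity included genes with larger differences than any member. Of 13 measured effector factors 2 fell, Bhlhe40, a regulator of cytokine production (-0.60 ± 0.06, limma adjusted p = 0.00484), and the AP-1 partner gene Batf (-0.49 ± 0.06, adjusted p = 0.00737). The T-box genes Eomes (0.67 ± 0.07, adjusted p = 0.00424) and Tbx21 (0.47 ± 0.07, adjusted p = 0.0191) rose. Eomes was near the median gene in brightness (percentile 50.7, mean 4.28 with vehicle), while Tbx21 was at percentile 91.1. Of the 13 factors 9 did not pass, and the list median was -0.18. Among those 9, Prdm1, an effector factor that opposes the naive programme and named after its value was seen, stood at -0.19 (adjusted p = 0.217). Of 19 other T cell identity factors the Ikaros family gene Ikzf3 rose from 8.06 ± 0.07 to 8.91 ± 0.02 (0.85 ± 0.07, adjusted p = 0.00146). Runx3 fell (-0.81 ± 0.07, adjusted p = 0.00277), 17 did not pass and the median was -0.02. Over the 8 lists together, 13 of 135 genes fell and 5 rose at the adjusted p, 13.3% in all, against 5.28% of all genes. These shares are not alike in brightness, since 122 of the 135 were brighter than the median gene. In the run without genes dimmer than the median, 38 of those 122 passed, as did 23.1% of the 11090 genes tested.

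**Figure D3:**
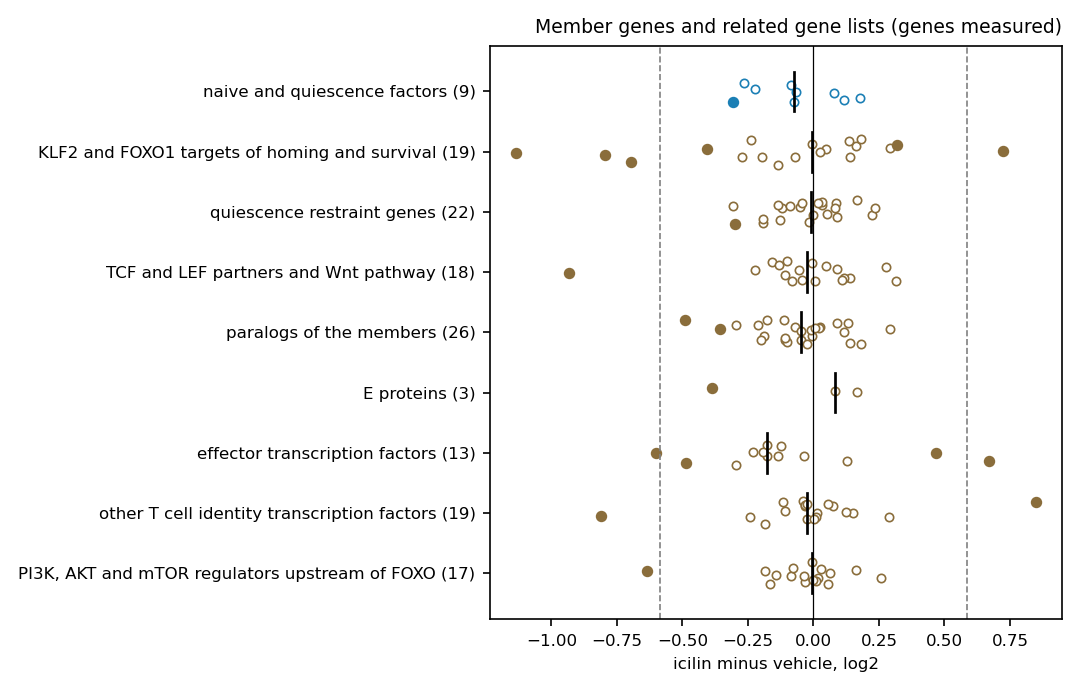
Difference between icilin and vehicle (horizontal axis, log2) of the 9 members (blue) and of the genes of 8 related lists (brown), with the number of genes measured in brackets; filled points passed an adjusted p of 0.1, black bars are medians and dashed lines mark 1.5-fold. The members lie between -0.31 and 0.18, while the target list reaches from -1.13 to 0.72.

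Markers were measured to check the labelled cells. All 8 measured T cell markers, Cd4 and Cd3e among them, were brighter than the median gene; 1 rose, the costimulatory receptor gene Cd28, named after its value was seen (0.34, limma adjusted p = 0.0529; without any 1 array other than vehicle replicate 1 0.31 to 0.36, adjusted p 0.126 to 0.172; with the replicate block adjusted p = 0.144), and 7 did not pass. Of 8 B cell markers, a cell type that also expresses several members, 3 were brighter than the median. The summed linear level of the 8 was 187 to 195 with vehicle and 201 to 204 with icilin. Their mean log2 values, 4.296 to 4.427 with vehicle and 4.374 to 4.426 with icilin, overlapped. The called B cell marker, named after its value was seen, was Ms4a1 (1.01, limma adjusted p = 0.00339). Ms4a1, Pax5 (0.21, adjusted p = 0.283) and Blnk (0.10, adjusted p = 0.486) were higher on every icilin array than on any vehicle array. Ebf1 (-0.73, adjusted p = 0.128) was lower on every icilin array than on any vehicle array. The groups overlapped for Cd79a (0.09), Cd79b (-0.0062), Cr2 (-0.12) and Fcer2a (-0.21), and 4 of the 8 markers lay below 0. Pax5, Blnk, Ebf1, Cr2 and Fcer2a were also named after their values were seen. Of 12 myeloid and dendritic cell markers 1, Cd68, was brighter than the median and 0 passed by limma (3 at an unadjusted p under 0.05), with sums of 215 to 221 and 200 to 204. The 3, named after their values were seen, were Cd68 (-0.26), Csf1r (-0.26) and Itgam (0.21). The mean log2 values of the 12 markers, 3.74 to 3.76 with vehicle and 3.68 to 3.75 with icilin, overlapped, and 6 of the 12 lay below 0. Of 7 CD8 T and NK cell markers 1, Cd8b1, was brighter than the median, and the sums were 190 to 208 and 175 to 214. Their mean log2 values were 4.32 to 4.46 with vehicle and 4.02 to 4.13 with icilin, without overlap, and 5 of the 7 lay below 0. At the adjusted p 2 fell, both named after their values were seen. They were the granzyme gene Gzma (-1.46, adjusted p = 0.000671) and Klrd1 (-0.27, adjusted p = 0.0843), whose call ended without any 1 array (-0.29 to -0.24, adjusted p 0.152 to 0.235), with the replicate block (adjusted p = 0.197), the intensity trend (adjusted p = 0.175) and centred arrays (adjusted p = 0.105), and by SAM. Cd8b1, also named after its value was seen, was higher on every icilin array than on any vehicle array, at 0.39 (limma adjusted p = 0.167), and did not pass. The rest of this list, likewise named after the values were seen, did not pass either. Cd8a stood at 0.01 (adjusted p = 0.974) and Ncr1 at -0.08 (adjusted p = 0.691), both with overlap. Klrb1c (-0.52, adjusted p = 0.135) and Klrk1 (-0.14, adjusted p = 0.353) were lower on every icilin array than on any vehicle array. The part of these markers in the differences of the members was not tested.

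**Figure D4:**
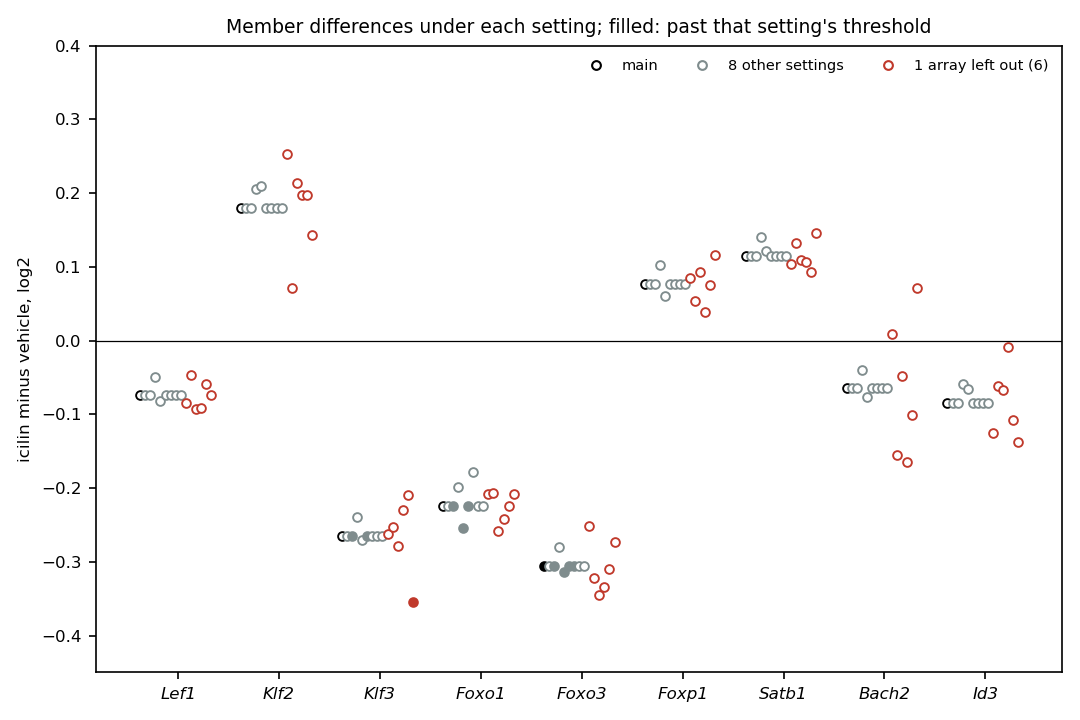
Difference between icilin and vehicle (vertical axis, log2) of each member under the main setting (black), 8 other settings (grey) and with 1 of the 6 arrays left out (red); filled points passed the threshold of that setting. Foxo3 (-0.34 to -0.25) and Foxo1 stay below 0 throughout, and Bach2 crosses 0 (-0.17 to 0.07) when single arrays are left out.

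The calls of the member genes moved with the setting. Centring, quantile normalization and leaving out an array could change a difference, as could using the second probe set of Foxo1. Under these, all members other than Bach2 kept their sign. The other settings leave the difference as it is and change the test alone. Under an intensity trend with robust variances, and when genes dimmer than the median were left out, Klf3, Foxo1 and Foxo3 passed the adjusted p. The share of all genes that passed was then 11.8% and 23.1%. Under quantile normalization Foxo1 and Foxo3 passed, as did 5.42% of all genes, and without vehicle replicate 3 Klf3 was the 1 member that passed. Over all genes the share that passed was 2.57% to 3.00% without any 1 of the icilin replicates or vehicle replicate 2 or 3, 4.01% without vehicle replicate 1 and 2.49% with the replicate block.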

How the data were processed

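The deposited values are log2 expression values that the authors made from 6 arrays with RMA (background correction, normalization between arrays, summarising of probes), per the series design text; labelling used 0.25 µg of RNA per sample. The array annotation gave 1 symbol to 23521 probe sets, several to 1814 and none to 16010; its genome build is not given in the sources used here. Any probe set that the annotation gave no symbol, or more than one, was dropped, and the brightest probe set was kept for the 1082 genes with more than 1. limma 3.58.1 in R 4.3.3 (lmFit, eBayes, 4 residual and 3.07 prior degrees of freedom) compared icilin with vehicle, two-sided, and was checked on simulated data together with SAM, which was written anew (20 regroupings). Errors are the SE of limma's difference or the SD of 3 arrays, and array number limits the precision. The alternatives were those given in the closing section.

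The members, lists and tests were chosen with earlier results of these data known. Named list genes are up to 5 past the adjusted p by smallest p, plus all paralogs other than KLF, and others are marked. Some genes of the lists are not reported here. Labels do not say that the replicate number names a mouse, so arrays were not paired and the replicate block is an alternative. Same-numbered arrays did not deviate together, which does not settle whether they share a mouse. The p-values measure the spread between these arrays. Summed marker levels are sums of 2 to the power of the log2 value. Figures used Python 3.11.15, pandas 2.3.3 and matplotlib 3.10.9.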

Additional observations from a re-analysis of the deposited data

How the results depend on the processing

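Results were recomputed with a replicate block, with a variance trend on intensity (robust), with centred or quantile normalized arrays, without genes below median brightness, on the mean of a gene's probe sets, over every single-symbol probe set (members), by SAM, at an adjusted p under 0.05 and without each array. The count of members past the adjusted p, 1 in the main analysis, was 0 with the replicate block, centred arrays, SAM, an adjusted p under 0.05 and the fit over every probe set, 2 with quantile normalization and 3 with the intensity trend or dim genes left out. With 1 array left out it was 0 to 1. No member was called at 1.5-fold in any of these. List genes past the adjusted p numbered 18, and 40 with the trend and 38 without dim genes. Over all genes, 1170 passed, against 552 with the block, 2621 with the trend, 2563 of 11090 without dim genes, 734 at 0.05 and 571 to 890 with 1 array left out.

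The same-numbered arrays had correlations of -0.0051, -0.014 and -0.022 in their deviations from the group means over all genes. Only same-numbered arrays were compared, so these values do not settle whether a number names a mouse. The replicate block ended the calls of Foxo3, Cdkn1b, Vsir, Klf12, Tcf4, Snrnp25, Bcl2l11, Cd28 and Klrd1 and changed no other call among the named genes.

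Over 716 values of single genes, 610 kept sign and call, 72 lost and 22 gained the call, and 12 turned sign, which were all small: Bach2 (-0.165 to 0.072), Foxp4 (-0.086 to 0.12), Tcf7l2 (-0.016 to 0.048), Id4 (-0.076 to 0.068) and Klf6 (-0.112 to 0.027) with 1 array left out, Foxp4 under quantile normalization (-0.0063) and Id4 with centred (0.016) or quantile normalized arrays (0.017). The replicate block, SAM and the other settings that change only the test leave the difference unchanged. Their values among the 716 could not turn sign. Of the genes that turned sign, Klf6 was named after its values were seen. The causes were not tested.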

Other observations

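A further probe set carries both Bach2 and its antisense neighbour Bach2os and so belongs to no single gene. It read 4.93, 4.74 and 4.55 with icilin and 4.74, 4.67 and 4.68 with vehicle, and the groups overlapped.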
